A study of Mus musculus with 16 samples.

Results

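The genes of the TGF-beta and bone morphogenetic protein (BMP) pathways were followed in mouse mammary organoids, small cultured structures of many cells that grow from tissue. The members were the protein-coding genes whose symbols belong to the TGF-beta, BMP, activin and inhibin ligands, their receptors, the SMAD proteins, the Id genes, and the secreted antagonists Nog, Grem1, Chrd and Fst. This rule used names only and gave 47 genes of 21936 protein-coding genes in the table. Of the 47, 40 had enough reads to be tested. RNA sequencing covered 16 samples. WT organoids came from normal breast (n = 3). Organoids from breast tumors carried a PIK3CA mutation (PIK3CA mutant, n = 4), a HER2 mutation (HER2 mutant, n = 4) or both (double mutant, n = 5). The series title gives the alleles as HER2 V777L and PIK3CA H1047R. The mouse gene for HER2, a receptor of the epidermal growth factor family, is Erbb2. PIK3CA encodes p110-alpha, the kinase subunit of phosphoinositide 3-kinase. All organoids grew in the same medium, with 50 ng/ml epidermal growth factor and 10% conditioned medium containing Rspo1 and Noggin. Noggin is itself a BMP antagonist, so every group was cultured with a BMP antagonist present. The labels give no promoter, Cre or animal age, and do not say how the HER2 allele was introduced. They also do not say whether samples of a group came from separate animals, so p-values measure only the spread between these samples. Every comparison with WT also compared tumor with normal tissue, and genotype and tissue source cannot be told apart there.

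Ligands of this family bind pairs of type I and type II receptors, which are serine/threonine kinases. TGF-betas and activins act mainly through SMAD2 and SMAD3, BMPs through SMAD1, SMAD5 and SMAD9, and SMAD4 is shared. SMAD6 and SMAD7 inhibit the pathway, and the Id genes, which encode inhibitors of basic helix-loop-helix factors, are classical targets of BMP signals. In the mammary gland, TGF-beta is known to restrain epithelial growth, and the pathway takes part in branching and involution.

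Promoters are shown for 4 members whose levels differed between genotypes in the tests given further on. Id2 and Id4 were both lower in HER2 than in PIK3CA mutants, Smad9 was lower and Tgfb2 higher in all 3 mutant genotypes than in WT. The sequences are from RefSeq on GRCm38.p6, 250 bases before the start that RefSeq gives, 5′ to 3′ on the gene's strand. That start can differ from the gene boundary in GENCODE, which the gene positions given further on follow: the Id2 window lies inside the GENCODE span of Id2, and the Id4 window ends short of the GENCODE start of Id4. Capitals mark GGCGCC in Id2, Id4 and Smad9, a motif bound by BMP SMADs, and CAGACA in Tgfb2, which holds the short SMAD-binding sequence. Id2 lies at chr12:25096093-25096342 (minus strand), Id4 at chr13:48260866-48261115 (plus), Smad9 at chr3:54755332-54755581 (plus) and Tgfb2 at chr1:186705990-186706239 (minus).
Id2: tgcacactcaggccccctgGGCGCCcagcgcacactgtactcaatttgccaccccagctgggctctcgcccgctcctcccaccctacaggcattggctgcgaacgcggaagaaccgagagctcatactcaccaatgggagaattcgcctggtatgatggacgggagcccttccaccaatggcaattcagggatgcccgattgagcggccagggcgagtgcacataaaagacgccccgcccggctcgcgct
Id4: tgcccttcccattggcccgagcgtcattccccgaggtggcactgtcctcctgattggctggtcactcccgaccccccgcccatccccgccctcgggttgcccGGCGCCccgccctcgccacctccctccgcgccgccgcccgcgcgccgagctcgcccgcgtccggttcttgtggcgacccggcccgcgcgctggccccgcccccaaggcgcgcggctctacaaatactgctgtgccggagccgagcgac
Smad9: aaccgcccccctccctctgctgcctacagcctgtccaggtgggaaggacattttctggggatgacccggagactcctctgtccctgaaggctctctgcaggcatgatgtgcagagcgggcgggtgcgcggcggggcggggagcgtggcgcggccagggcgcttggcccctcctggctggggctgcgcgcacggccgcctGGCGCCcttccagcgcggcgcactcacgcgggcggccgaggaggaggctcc
Tgfb2: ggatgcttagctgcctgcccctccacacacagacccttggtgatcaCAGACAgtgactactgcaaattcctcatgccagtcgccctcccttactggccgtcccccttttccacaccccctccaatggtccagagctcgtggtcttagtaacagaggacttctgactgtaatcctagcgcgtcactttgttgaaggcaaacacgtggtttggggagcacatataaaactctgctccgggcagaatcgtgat
Of the 47 members, 34 matched a promoter in the table, with 40 windows in all. Smad2, Smad4 and Smad7 were left out of this matching beforehand, and no such exclusion was made in the windows of all genes. GGCGCC, which reads the same on both strands, was in 9 of the 40 windows, and 9.59% of the 32851 windows of all genes held it. CAGACA or its reverse complement TGTCTG was in 6 of 40 windows, against 17.1% of all windows. The longer palindrome GTCTAGAC was in 0 of 40 windows and in 0.167% of all windows. Among the members with a call in any comparison, 12 of 16 matched a promoter, and Smad2 was one of those left out. Of these, 6 held GGCGCC, namely Id2, Id4, Smad9, Tgfbr1, Chrd and Grem1. This counts genes, while the share of 9.59% counts windows. The called members Inhbb, Id3, Smad6, Acvr2b and Inhba held none of the motifs. Bmpr2, Smad5 and Bmpr1a held GGCGCC and had no call. Whether the motif goes with the calls was not tested. A match shows only that the letters are present.

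Total counts ran from 45545182 to 64168308 per sample. Erbb2 averaged 156 CPM in WT (read counts scaled to a common library size) and 168 CPM in PIK3CA mutants, against 3600 CPM in HER2 and 2031 CPM in double mutants. Within the double mutants it was 2751 and 2705 CPM in replicates 2 and 3, and 1499 to 1649 CPM in the others. Epithelial markers (Epcam, Cdh1, Krt8, Krt18, Krt19) summed to 1685 to 4753 CPM in every sample. Marker genes of other cell types also differed in level between genotypes. Summed macrophage and immune markers were 542 to 3330 CPM in WT, 14.3 to 37.3 CPM in PIK3CA, 9.64 to 210 CPM in HER2 and 13.0 to 67.7 CPM in double mutants. Of these 9 markers, 8 were lower than WT in PIK3CA mutants, 6 in HER2 mutants and 8 in double mutants. Summed fibroblast and stromal markers were 435 to 2167 CPM in WT, 129 to 608 CPM in PIK3CA, 110 to 735 CPM in HER2 and 69.3 to 186 CPM in double mutants, with 1, 2 and 8 of 9 lower than WT in that order of mutants. Basal and myoepithelial markers summed to 515 to 1059 CPM in WT, 525 to 1395 CPM in PIK3CA, 265 to 974 CPM in HER2 and 566 to 1041 CPM in double mutants, and 5 of 9 were lower in HER2 than in PIK3CA mutants. Endothelial and adipocyte markers stayed at or below 29.3 and 14.1 CPM in sum. In bulk samples, fewer cells of a type and less RNA per cell cannot be told apart. No marker was at 0 in all samples of a genotype. The part of these cell types in the results was not tested.

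Levels within the pathway were uneven. Per kilobase of exon and averaged over all samples, Tgfb3 was the most abundant member at 181 CPM per kb. Inhbb followed at 120, Id2 at 75.1, the co-receptor gene Tgfbr3 at 40.8 and Id1 at 32.2 CPM per kb. Among the tested members, Bmp3 (0.0333 CPM per kb), Chrd (0.110) and Smad9 (0.112) were the lowest. The 7 members not tested, Acvr1c, Bmp10, Bmp15, Bmpr1b, Inhbc, Inhbe and Nog, had at most 19 reads in any sample. Noggin mRNA was thus nearly undetected in organoids whose medium held Noggin protein, with 0.0167 to 0.140 CPM in WT, 0 to 0.286 CPM in PIK3CA, 0 to 0.0754 CPM in HER2 and 0.0194 to 0.126 CPM in double mutants. A count of 3 reads corresponded to 0.0468 to 0.0659 CPM.

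EdgeR's quasi-likelihood test was fitted to the 16 samples together, p-values were adjusted by Benjamini-Hochberg over 24252 genes, and a gene is said to have risen or fallen at an adjusted p under 0.05. In all, 16 members changed in at least 1 of the 7 contrasts and 24 in none, with 27 calls among 280 gene and contrast pairs, 19 of them against WT. In PIK3CA mutants against WT, 4 of 40 members changed (2 higher, 2 lower), where 4.52% of all tested genes did (1.49% higher, 3.03% lower). In HER2 mutants against WT, 7 of 40 changed (1 higher, 6 lower), against 10.4% of all genes (4.75% higher, 5.63% lower). With upper-quartile scaling 2 were higher and 5 lower. It was 2 higher and 6 lower with an offset for GC content and length or with limma. Over all genes these settings called 2467, 2624 and 2594 in that order, beside 2518 in the main fit. In double mutants against WT, 8 of 40 changed (3 higher, 5 lower), against 11.8% of all genes (5.03% higher, 6.72% lower). Between mutants the counts were small. Double against HER2 mutants gave 2 of 40 (1 higher, 1 lower), beside 2.5% of all genes (1.03% higher, 1.47% lower). Double against PIK3CA mutants gave 1 of 40, which was lower, beside 0.672% of all genes (0.363% lower). HER2 against PIK3CA mutants gave 4 of 40, all lower, beside 4.41% of all genes (2.21% higher, 2.2% lower). The interaction asks whether the change in double mutants differs from both single changes added on the log2 scale, and it too contains the difference between tumor and normal tissue, since WT was the only group from normal tissue. It gave 1 of 40, which was lower, beside 1.06% of all genes (0.544% lower). The median log2 fold change of the 40 members lay between -0.13 and 0.15 over the contrasts, and that of all genes between -0.03 and 0.07. Comparisons with the same control samples share those values, so their calls are not separate evidence.

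**Figure D1:**
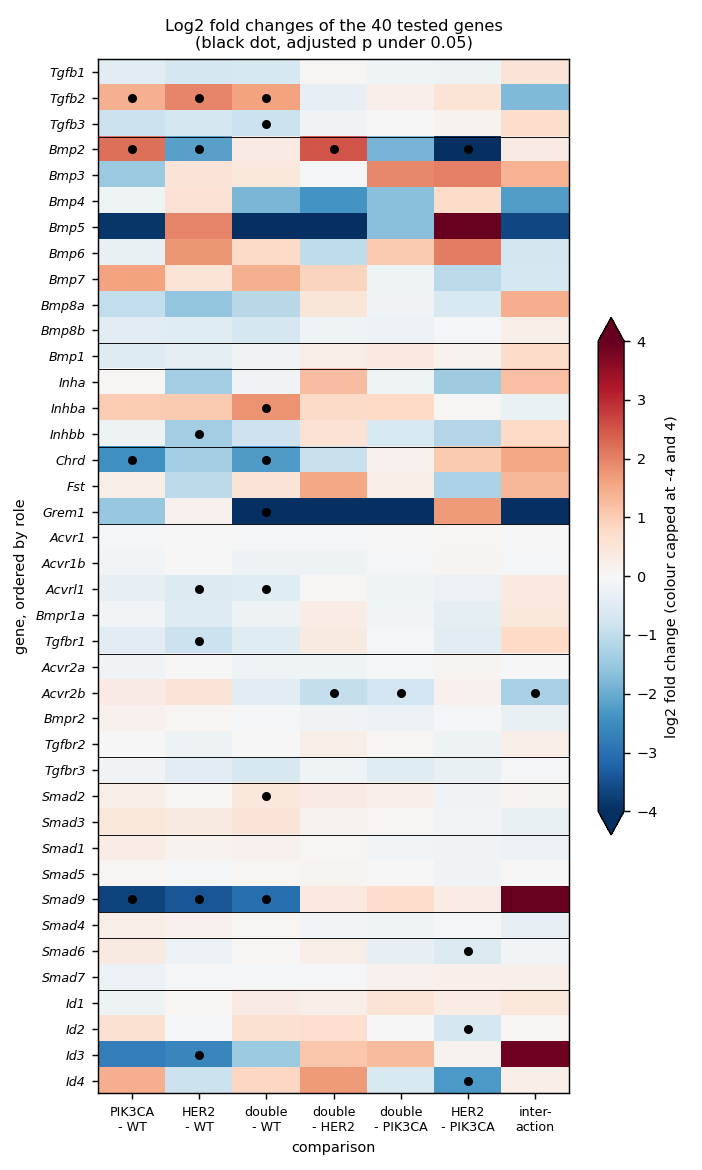
Log2 fold changes (colour, capped at -4 and 4) of the 40 tested members (rows, ordered by role) in the 6 pairs of genotypes and the interaction (columns). Black dots mark an adjusted p under 0.05 in edgeR; the 27 dots fall on 16 genes, and Bmp2 carries 4 of them.

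Many of these calls were lost when 1 library was left out. Only 3 of the 27 passed in every fit that left out 1 library: Tgfb2 in HER2 mutants against WT, Bmp2 in HER2 against PIK3CA mutants and Acvr2b in double against HER2 mutants. The libraries without which a call was lost are named beside each gene. Libraries are named by genotype and replicate number. Leaving out 1 library also changed the number of calls over all genes. Without WT 3, it went from 1096 to 396 in PIK3CA and from 2518 to 733 in HER2 mutants, both against WT. In double against PIK3CA mutants it went from 163 to 17 without PIK3CA 3. In double against HER2 mutants it rose from 606 to 975 without HER2 3. A lost call alone therefore does not set a member apart from other genes. A fit of only the 2 genotypes compared ended 14 of the 27 calls, among them those of Tgfb2 in HER2 mutants against WT and Acvr2b in double against HER2 mutants. The others were Acvrl1 in HER2 and in double mutants, Bmp2, Id3, Inhbb, Smad9 and Tgfbr1 in HER2 mutants and Inhba in double mutants, all against WT, Bmp2 in double against HER2 mutants, and Id2, Id4 and Smad6 in HER2 against PIK3CA mutants. In such fits the calls over all genes fell from 2518 to 541 in HER2 mutants against WT. They fell from 606 to 37 in double against HER2 and from 1069 to 534 in HER2 against PIK3CA mutants. In PIK3CA mutants against WT they rose from 1096 to 4136.

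The TGF-beta ligands moved in opposite directions. Tgfb2, a TGF-beta isoform, rose in every mutant genotype, while Tgfb3 fell in double mutants. Tgfb2 (ENSMUSG00000039239, chromosome 1, 186622792 to 186705989 in GRCm38) had 25.9, 34.2 and 20.9 CPM in WT. It had 78.7, 73.9, 57.7 and 78.0 CPM in PIK3CA mutants, 176, 35.2, 79.8 and 129 CPM in HER2 mutants, and 75.8, 105, 79.2, 81.0 and 74.7 CPM in double mutants. No mutant sample overlapped WT, although HER2 2 was close to WT 2. Against WT, the log2 fold change was 1.42 in PIK3CA (adjusted p 0.0403 in edgeR, SE 0.372), 1.96 in HER2 (adjusted p 0.00533 in edgeR, SE 0.381) and 1.62 in double mutants (adjusted p 0.00858 in edgeR, SE 0.365). The PIK3CA call was lost without any 1 of its 7 libraries (adjusted p 0.0517 to 0.225), and the double mutant call without WT 3 (0.0663). Its estimate in the interaction was -1.75 (adjusted p 0.0968 in edgeR, SE 0.482), so a smaller change in double mutants than the sum of the single ones was not shown.

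Tgfb3 (ENSMUSG00000021253, chromosome 12, 86056745 to 86079041) had 997, 781 and 1034 CPM in WT and 547, 402, 438, 636 and 582 CPM in double mutants. PIK3CA mutants had 556, 512, 540 and 481 CPM, and HER2 mutants 623, 325, 817 and 523 CPM. All PIK3CA and double mutant samples were below all WT samples, while HER2 3 was above WT 2. Tgfb3 fell by 0.85 on the log2 scale in double mutants against WT (adjusted p 0.0234 in edgeR, SE 0.226). That call was lost without WT 1, WT 3 or double 2 (adjusted p 0.0532 to 0.119), and without double 2 and double 3 together (0.113). The difference was -0.84 in PIK3CA mutants (edgeR adjusted p 0.0577) and -0.71 in HER2 mutants (edgeR adjusted p 0.0698), neither past the threshold. Tgfb1, the isoform best known from immune and stromal cells, had 85.4, 122 and 142 CPM in WT and 74.7 to 95.5 CPM in PIK3CA mutants. It had 48.7 to 90.0 CPM in HER2 and 48.3 to 87.3 CPM in double mutants. Its log2 fold change in double mutants against WT was -0.64 (adjusted p 0.0663 in edgeR, SE 0.214), and the groups overlapped. Left-out libraries moved that adjusted p between 0.0436 and 0.319. Tgfb2 and Tgfb3 each overlap other genes on the opposite strand, and the strand setting of the counts is not given in the sources used here, so reads of the partners cannot be told apart.

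**Figure D2:**
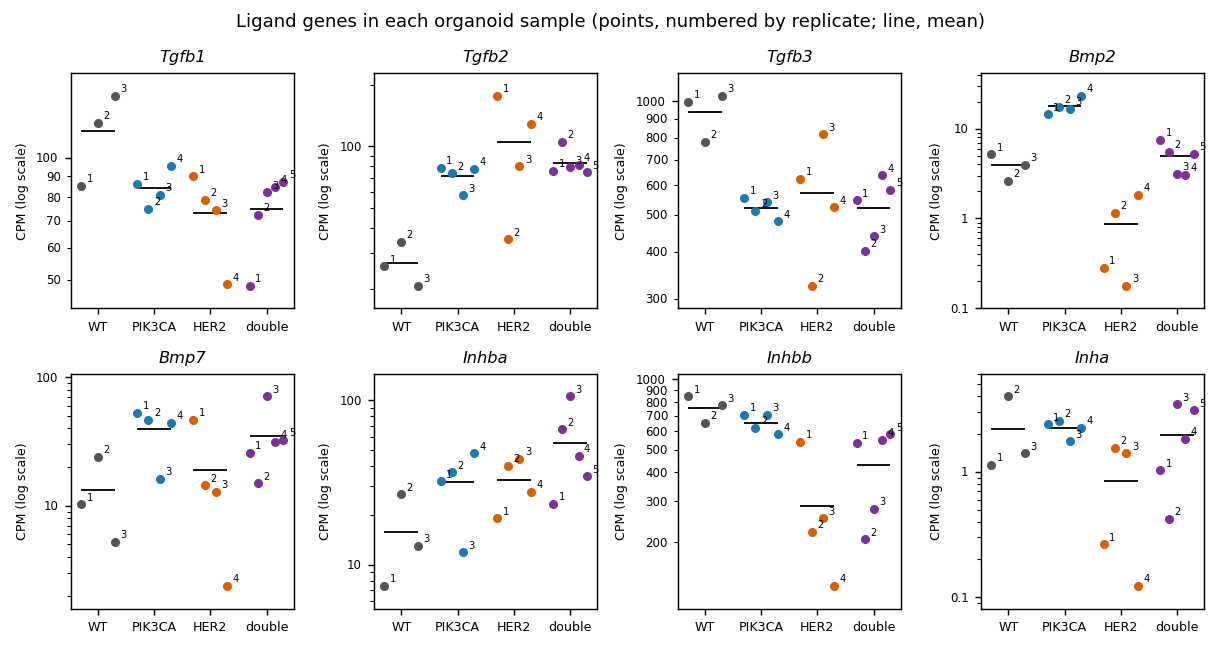
CPM (log scale) of ligand and subunit genes in each sample (points, numbered by replicate) with the genotype mean (line). Bmp2 separates HER2 mutants (0.178 to 1.82 CPM) from PIK3CA mutants (14.5 to 23.1 CPM), and Tgfb2 lies above WT in all 13 mutant samples.

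Among the BMP ligands, Bmp2 was the member whose level separated the mutant genotypes most clearly. It was higher than WT in PIK3CA mutants, lower in HER2 mutants, and near WT in double mutants. Bmp2 (ENSMUSG00000027358, chromosome 2, 133552159 to 133562885) had 5.17, 2.64 and 3.95 CPM in WT. It had 14.5, 17.6, 16.6 and 23.1 CPM in PIK3CA mutants, 0.283, 1.16, 0.178 and 1.82 CPM in HER2 mutants, and 7.57, 5.54, 3.12, 3.08 and 5.25 CPM in double mutants. PIK3CA mutants lay above, and HER2 mutants below, every sample of the other genotypes, and double mutants overlapped WT. HER2 mutants were lower than PIK3CA mutants by a log2 difference of -4.38 (adjusted p 0.0011 in edgeR, SE 0.585), about 20.8-fold. This was the 1 call of the 27 that passed in every alternative run, with adjusted p between 1.71e-14 and 0.0187. The change against WT was 2.19 in PIK3CA mutants (adjusted p 0.0439 in edgeR, SE 0.586) and -2.19 in HER2 mutants (adjusted p 0.0238 in edgeR, SE 0.565). Double mutants were above HER2 mutants by 2.51 (adjusted p 0.0233 in edgeR, SE 0.531). Against PIK3CA mutants their log2 difference was -1.87 (adjusted p 0.0968 in edgeR, SE 0.482), which did not pass, although the samples did not overlap. The interaction estimate was 0.32 (adjusted p 0.899 in edgeR, SE 0.732).

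The PIK3CA call of Bmp2 against WT was lost without any 1 of the 7 libraries (adjusted p 0.0728 to 0.186). The HER2 call was lost without WT 1 or WT 3 (0.0762 and 0.0932), and the double against HER2 call without double 1 (0.0528). The basal marker sum was lower in 3 of the 4 HER2 mutants than in every PIK3CA mutant, and the part of basal cells in the Bmp2 result was not tested. HER2 1 had a sum of 974 CPM, of which Krt14 gave 507 CPM. Its Krt5 (44.8 CPM), Myh11 (1.36 CPM), Cnn1 (0.811 CPM) and Mylk (2.02 CPM) were below every PIK3CA mutant, as they were in the other HER2 mutants. Other basal markers went the other way in HER2 1. Its Krt14 and Krt17 (105 CPM) were above every PIK3CA mutant. Its Trp63 (165 CPM) and Acta2 (98.1 CPM) were above PIK3CA 3 (99.6 and 98.0 CPM) but below the other PIK3CA mutants.

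The other BMP ligands had no call. Bmp7, the most abundant of them, ran from 5.22 to 24.0 CPM in WT, 16.2 to 53.0 CPM in PIK3CA, 2.37 to 46.5 CPM in HER2 and 15 to 71.2 CPM in double mutants, with wide overlap. Its smallest adjusted p over the contrasts was 0.234 (edgeR). Bmp4 stayed at or below 3.58 CPM and Bmp6 at or below 4.74 CPM. Bmp5 was at or below 1.63 CPM except in HER2 1, which had 10.1 CPM, and its smallest adjusted p was 0.0571 (edgeR). Bmp3, Bmp8a and Bmp8b averaged under 1 CPM in each genotype. Bmp8a and Bmp8b are close copies of each other, so their split is uncertain. Bmp1, which is a protease of procollagen and chordin and no BMP ligand, averaged 133 CPM in WT, 92.8 CPM in PIK3CA, 103 CPM in HER2 and 121 CPM in double mutants (smallest edgeR adjusted p 0.192).

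The activin and inhibin subunits split as well. Inhbb, the activin beta-B subunit and an abundant member, fell in HER2 mutants. Inhba, the beta-A subunit, rose in double mutants. Inhbb (ENSMUSG00000037035, chromosome 1, 119415465 to 119422248) had 847, 651 and 776 CPM in WT and 705, 620, 704 and 581 CPM in PIK3CA mutants. It had 541, 222, 254 and 130 CPM in HER2 mutants and 534, 206, 278, 552 and 581 CPM in double mutants. All HER2 mutants lay below all WT and PIK3CA samples, and double 2 and double 3 lay below the other 3 double mutants. HER2 mutants differed from WT by -1.40 log2 units (adjusted p 0.0353 in edgeR, SE 0.397), and the call was lost without any 1 of 6 libraries, all but HER2 1 (adjusted p 0.0563 to 0.114). Against PIK3CA mutants it was -1.19 (adjusted p 0.0839 in edgeR, SE 0.374). HER2 1, the highest HER2 mutant, also had the highest basal marker sum of that genotype (974 CPM, mostly Krt14, against 265 to 390 CPM). Double 2 was the lowest double mutant for both (basal sum 566 CPM). Other samples went the other way. Double 3 had a basal sum of 955 CPM with 278 CPM of Inhbb. WT 3 and PIK3CA 3 had the lowest basal sums of their genotypes (515 and 525 CPM) with 776 and 704 CPM of Inhbb. The part of basal cells in the Inhbb result was not tested.

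Inhba (ENSMUSG00000041324, chromosome 13, 16011851 to 16031621) had 7.41, 26.8 and 13.0 CPM in WT and 23.5, 66.2, 105, 46 and 34.3 CPM in double mutants. It had 32.1, 36.4, 11.9 and 47.4 CPM in PIK3CA and 19.1, 40.0, 43.9 and 27.7 CPM in HER2 mutants. Double mutants were high as a group, but double 1 was below WT 2. The log2 fold change was 1.81 in double mutants against WT (adjusted p 0.0404 in edgeR, SE 0.543). It was lost without WT 1, WT 3, double 2, double 3 or double 4 (adjusted p 0.0529 to 0.175), and without double 2 and double 3 together (0.194). Inha, the inhibin alpha subunit, averaged 2.18 CPM in WT, 2.23 CPM in PIK3CA, 0.838 CPM in HER2 and 1.96 CPM in double mutants and had no call.

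The secreted antagonists bind BMPs or activins outside the cell. Grem1, which encodes gremlin, and Chrd, which encodes chordin, fell in double mutants against WT. Chrd (ENSMUSG00000006958, chromosome 16, 20733127 to 20742384) also fell in PIK3CA mutants. It had 1.33, 1.60 and 2.34 CPM in WT, 0.0636, 0.124, 0.664 and 0.447 CPM in PIK3CA mutants, 1.15, 0.520, 0.645 and 0.368 CPM in HER2 mutants, and 0.248, 0.273, 0.667, 0.480 and 0.136 CPM in double mutants. No mutant sample reached the WT range. Against WT, it changed by -2.44 log2 units in PIK3CA (adjusted p 0.0439 in edgeR, SE 0.653), -2.27 in double (adjusted p 0.0223 in edgeR, SE 0.602) and -1.38 in HER2 mutants (adjusted p 0.180 in edgeR, SE 0.629). The PIK3CA call was lost without any 1 of 6 libraries, all but PIK3CA 3 (adjusted p 0.0717 to 0.204), and the double mutant call without WT 3 or double 2 (0.0502 to 0.117). Chrd shares exon sequence with Thpo on the opposite strand.

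Grem1 (ENSMUSG00000074934, chromosome 2, 113746164 to 113758646) had 2.87, 13.1 and 8.17 CPM in WT and 0.142, 0.252, 0.118, 0 and 0.0778 CPM in double mutants, a total of 30 reads in the 5 double mutants. It had 0.0318, 0.0620, 1.84 and 9.25 CPM in PIK3CA mutants and 0.377, 5.20, 0.156 and 30.7 CPM in HER2 mutants. Within both single mutants the samples ranged from near 0 to above the WT median. Grem1 fell by 6.08 on the log2 scale in double mutants against WT (adjusted p 0.0263 in edgeR, SE 1.67). That call was lost without WT 2, WT 3, double 3, double 4 or double 5 (adjusted p 0.0544 to 0.0677), and without double 2 and double 3 together (0.0904). The 3 highest mutant samples, HER2 4, PIK3CA 4 and HER2 2, had stromal marker sums of 735, 608 and 463 CPM, and the other mutant samples 69.3 to 226 CPM. WT 1, the lowest WT sample for Grem1, had 435 CPM, against 2167 and 2052 CPM in WT 2 and WT 3. The part of stromal cells in the Grem1 result was not tested. Fst, the activin-binding follistatin, had no call, with a log2 difference of 1.55 between double and HER2 mutants (adjusted p 0.0640 in edgeR, SE 0.431). It had 8.89 to 27.4 CPM in double and 2.93 to 11.1 CPM in HER2 mutants, which overlapped.

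**Figure D3:**
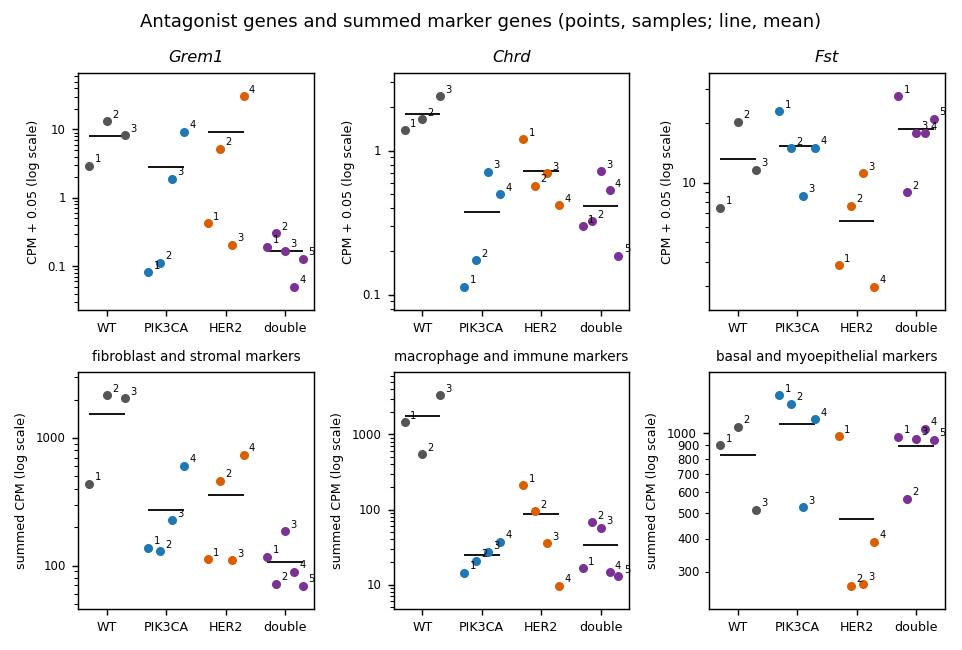
Upper row, CPM + 0.05 (log scale) of Grem1, Chrd and Fst in each sample (points, numbered by replicate; line, mean). Lower row, summed CPM (log scale) of 9 stromal, 9 immune and 9 basal marker genes; the mutant samples with the most Grem1, HER2 4 and PIK3CA 4, also have the largest stromal sums among mutants (735 and 608 CPM).

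Among the type I and type II receptors tested, Acvr2b alone had an interaction past the threshold. Acvr2b, a type II receptor for activins, was higher in single mutants than in double mutants. Acvr2b (ENSMUSG00000061393, chromosome 9, 119402118 to 119434995) had 10.2, 10.9 and 10.3 CPM in WT, 12.4, 12.3, 12.7 and 15.2 CPM in PIK3CA mutants, and 16.1, 14.4, 15.1 and 14.1 CPM in HER2 mutants. Double mutants had 6.13, 6.69, 9.17, 8.87 and 7.60 CPM. Every single-mutant sample lay above WT and every double mutant sample below it. Double mutants were lower than HER2 mutants by a log2 difference of -0.96 (adjusted p 0.00389 in edgeR, SE 0.143) and lower than PIK3CA mutants by -0.77 (adjusted p 0.0241 in edgeR, SE 0.143). The interaction estimate was -1.28 (adjusted p 0.0120 in edgeR, SE 0.218). The separate changes against WT did not pass, with 0.33 in PIK3CA (edgeR adjusted p 0.329), 0.51 in HER2 (edgeR adjusted p 0.0594) and -0.45 in double mutants (edgeR adjusted p 0.0737). The interaction call was lost without WT 3 (adjusted p 0.0551). The call against PIK3CA mutants was lost without any PIK3CA library, double 1, double 2 or double 5 (0.0506 to 0.0916), and without a filter on low counts.

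Tgfbr1, the type I receptor for TGF-beta, fell in HER2 mutants. Tgfbr1 (ENSMUSG00000007613, chromosome 4, 47353222 to 47414931) had 52.3, 49.3 and 66.3 CPM in WT and 42.3, 45.3, 38.7 and 41.3 CPM in PIK3CA mutants. It had 22.8, 37.7, 40.2 and 22.4 CPM in HER2 mutants and 42.1, 41.1, 33.6, 40.8 and 40.9 CPM in double mutants. All mutant samples were below all WT samples, and HER2 1 and HER2 4 were the lowest. In HER2 mutants the log2 fold change against WT was -0.86 (adjusted p 0.0117 in edgeR, SE 0.193), lost without WT 3 (0.0829). It was -0.42 in PIK3CA mutants (edgeR adjusted p 0.284) and -0.50 in double mutants (edgeR adjusted p 0.0925).

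Acvrl1, the type I receptor ALK1 known from endothelial cells, fell in HER2 and double mutants. Acvrl1 (ENSMUSG00000000530, chromosome 15, 101128522 to 101145336) had 21.2, 23.9 and 26.0 CPM in WT, 20.2, 15.8, 20.3 and 18.9 CPM in PIK3CA mutants, 15.7, 18.3, 16.5 and 13.8 CPM in HER2 mutants, and 18.0, 12.9, 16.6, 18.8 and 17.7 CPM in double mutants. All mutant samples were below all WT samples. In HER2 mutants it was lower than WT by a log2 change of -0.56 (adjusted p 0.0345 in edgeR, SE 0.157) and in double mutants by -0.50 (adjusted p 0.0403 in edgeR, SE 0.149). Both calls were lost in 6 fits that left out 1 library (adjusted p up to 0.168 and 0.202): without WT 1, WT 2 or WT 3 for both, HER2 1, HER2 3 or HER2 4 for the first, and double 2, double 3 or double 5 for the other. Both were lost without a filter on low counts, and the double mutant call also with the GC and length offset and without double 2 and double 3 together. Endothelial markers summed to 6.90 to 29.3 CPM in WT and 1.00 to 3.32 CPM in the mutants, and their part in the Acvrl1 result was not tested. Acvrl1 shares exon sequence with an antisense transcript on the opposite strand, whose reads cannot be told apart.

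**Figure D4:**
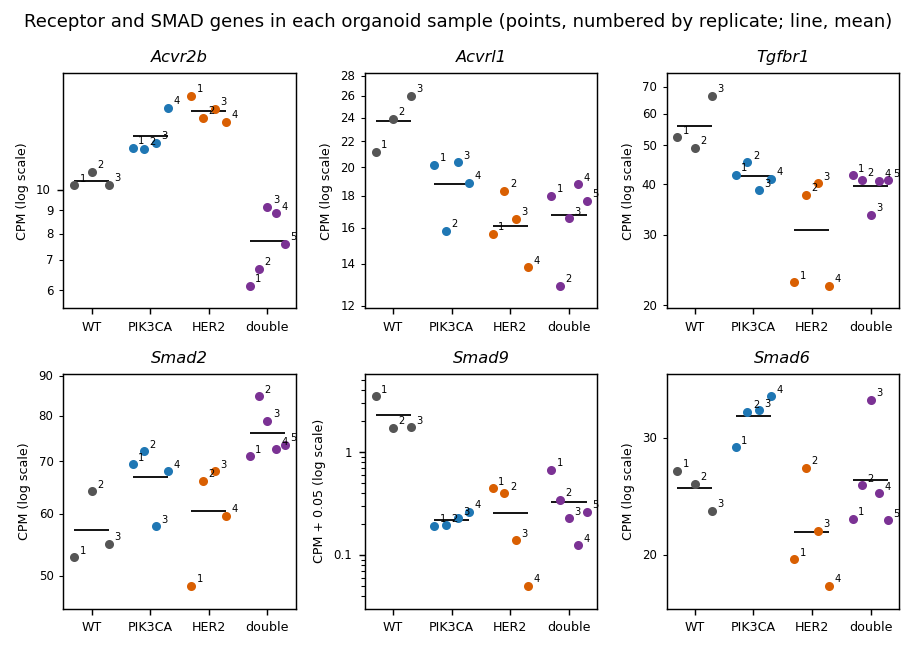
CPM (log scale; CPM + 0.05 for Smad9, which had 0 reads in HER2 4) of receptor and SMAD genes in each sample (points, numbered by replicate) with the genotype mean (line). In Acvr2b, the single mutants lie above WT (12.3 to 16.1 CPM) and the double mutants below it (6.13 to 9.17 CPM).

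The remaining receptor genes that were tested, Acvr1, Acvr1b, Bmpr1a, Acvr2a, Bmpr2, Tgfbr2 and the co-receptor gene Tgfbr3, had no call. Bmpr1a, a type I receptor for BMPs, came nearest, at -0.51 in HER2 mutants against WT (adjusted p 0.0516 in edgeR, SE 0.160). Tgfbr3, which encodes betaglycan, had a smallest adjusted p of 0.0865 (edgeR). The other 5 had smallest adjusted p of 0.397 to 0.818 (edgeR).

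The receptor SMADs changed little, apart from Smad9. Smad2 (ENSMUSG00000024563) had 52.8, 64.1 and 54.9 CPM in WT, 69.4, 72.1, 57.8 and 68.0 CPM in PIK3CA mutants, 48.5, 66.0, 68.0 and 59.6 CPM in HER2 mutants, and 71.0, 84.7, 78.9, 72.6 and 73.4 CPM in double mutants. All double mutants were above all WT samples. The log2 fold change in double mutants against WT was 0.41 (adjusted p 0.0499 in edgeR, SE 0.129), and it was lost without WT 1, WT 3, double 2, double 3, double 4 or double 5 (adjusted p 0.0642 to 0.209). Upper-quartile scaling, no filter on low counts, and leaving out double 2 and double 3 together also ended this call. Smad3, the other SMAD of TGF-beta and activin, averaged 103 CPM in WT, 142 CPM in PIK3CA, 132 CPM in HER2 and 146 CPM in double mutants with no call. Smad1, Smad5 and the shared Smad4 had smallest adjusted p of 0.506 to 0.568 (edgeR).

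Smad9, a BMP SMAD at low level here, fell in all 3 mutant genotypes. Smad9 (ENSMUSG00000027796, chromosome 3, 54755582 to 54801257) had 3.43, 1.66 and 1.68 CPM in WT. It had 0.143, 0.145, 0.177 and 0.214 CPM in PIK3CA mutants, 0.396, 0.347, 0.0890 and 0 CPM in HER2 mutants, and 0.621, 0.294, 0.177, 0.0739 and 0.214 CPM in double mutants. No mutant sample reached the WT range, and the mutant values rest on 0 to 35 reads per sample. Relative to WT, the log2 fold change was -3.72 in PIK3CA (adjusted p 0.0111 in edgeR, SE 0.779), -3.41 in HER2 (adjusted p 0.0119 in edgeR, SE 0.767) and -3.02 in double mutants (adjusted p 0.00997 in edgeR, SE 0.693). Each of the 3 calls was lost without WT 1, the highest sample (adjusted p 0.0552, 0.0580 and 0.0656), and the double mutant call also without double 2 and double 3 together (0.0507). The immune and endothelial marker sums were also higher in every WT sample than in every mutant sample, and the stromal sums higher in WT than in most mutants, as given above. WT 1 had the lowest stromal sum of the WT samples (435 CPM) and the most Smad9. The part of these cell types in the Smad9 result was not tested.

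The inhibitory SMADs, which BMP and TGF-beta signals are known to induce, differed in their behaviour. Smad6 (ENSMUSG00000036867, chromosome 9, 63953076 to 64022059) had 26.7, 25.6 and 23.3 CPM in WT, 29.1, 32.8, 33.0 and 34.7 CPM in PIK3CA mutants, 19.7, 27.1, 21.8 and 18.0 CPM in HER2 mutants, and 22.6, 25.5, 34.2, 24.8 and 22.6 CPM in double mutants. All HER2 mutants lay below all PIK3CA mutants. The log2 difference was -0.58 (adjusted p 0.0441 in edgeR, SE 0.155). The call was lost without any 1 of 7 libraries, all but HER2 2 (adjusted p 0.0703 to 0.109), with upper-quartile scaling, without a filter on low counts and with the GC and length offset. Smad7 (ENSMUSG00000025880) had 100.4, 97.0 and 95.8 CPM in WT, 67.0, 75.8, 88.0 and 101 CPM in PIK3CA mutants, 69.5, 115, 139 and 59.5 CPM in HER2 mutants, and 37.3, 140, 167, 63.6 and 58.6 CPM in double mutants. The genotype means lay within 83.0 to 97.7 CPM, while samples of 1 genotype differed by more than that. Its smallest adjusted p over the contrasts was 0.828 (edgeR).

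The Id genes were the target genes among the members. Id1 showed no difference between genotypes beyond the spread, Id3 fell in HER2 mutants against WT, and Id2 and Id4 were lower in HER2 than in PIK3CA mutants. Id1 (ENSMUSG00000042745, chromosome 2, 152736251 to 152737410) had 50.1, 19.8 and 36.2 CPM in WT, 24.2, 29.8, 36.1 and 32.0 CPM in PIK3CA mutants, 7.07, 51.9, 75.3 and 15.4 CPM in HER2 mutants, and 19.96, 88.6, 77.8, 19.7 and 14.6 CPM in double mutants. HER2 2, HER2 3, double 2 and double 3 were high, and the other HER2 and double mutants were low. The same 4 libraries were the highest of their genotype for Smad7 and for Id3. The log2 fold change of Id1 in double mutants against WT was 0.32 (adjusted p 0.811 in edgeR, SE 0.685), and it was -0.97 without double 2 and double 3 (edgeR adjusted p 0.384). The direction for double mutants was therefore set by those libraries.

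**Figure D5:**
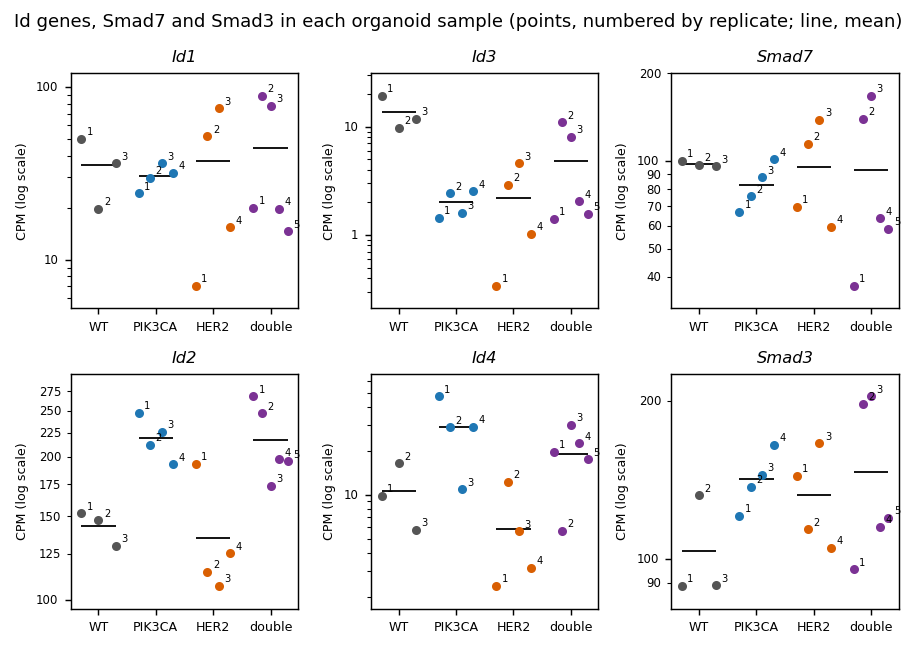
CPM (log scale) of the 4 Id genes, Smad7 and Smad3 in each sample (points, numbered by replicate) with the genotype mean (line). Samples 2 and 3 of the HER2 and double mutants are the highest of their genotype for Id1, Id3 and Smad7, while sample 1 is the highest of both genotypes for Id2.

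Id3 (ENSMUSG00000007872, chromosome 4, 136143497 to 136145755) had 19.2, 9.77 and 11.8 CPM in WT. It had 1.45, 2.42, 1.59 and 2.54 CPM in PIK3CA mutants, 0.339, 2.89, 4.61 and 1.02 CPM in HER2 mutants, and 1.42, 11.0, 8.09, 2.05 and 1.58 CPM in double mutants. PIK3CA and HER2 mutants lay below all WT samples, and of the double mutants only double 2 reached the WT range. Id3 fell by 2.62 on the log2 scale in HER2 mutants against WT (adjusted p 0.0432 in edgeR, SE 0.780). This call was lost without any 1 of 6 libraries, all but HER2 3 (adjusted p 0.0577 to 0.147), and with upper-quartile scaling. In PIK3CA mutants the log2 fold change was -2.76 (adjusted p 0.0577 in edgeR, SE 0.783), and in double mutants -1.49 (adjusted p 0.190 in edgeR, SE 0.711). Its interaction estimate was 3.89 (adjusted p 0.0886 in edgeR, SE 1.05).

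Id2, known in the mammary gland for a part in alveolar development, had 152, 147 and 130 CPM in WT, 248, 212, 226 and 193 CPM in PIK3CA mutants, 193, 114, 107 and 125 CPM in HER2 mutants, and 268, 247, 174, 198 and 196 CPM in double mutants (ENSMUSG00000020644, chromosome 12, 25093799 to 25097140). HER2 2, HER2 3 and HER2 4 were the lowest samples of all, while HER2 1 met the lower end of the PIK3CA mutants. The log2 difference between HER2 and PIK3CA mutants was -0.70 (adjusted p 0.0407 in edgeR, SE 0.182), lost without any 1 of 7 libraries, all but HER2 1 (adjusted p 0.0601 to 0.117). Double mutants against HER2 mutants differed by 0.68 (adjusted p 0.0509 in edgeR, SE 0.174). Id4, expressed in basal mammary cells, had 9.88, 16.4 and 5.74 CPM in WT, 47.1, 29.0, 10.9 and 29.3 CPM in PIK3CA mutants, 2.38, 12.3, 5.61 and 3.15 CPM in HER2 mutants, and 19.6, 5.66, 30.2, 22.4 and 17.4 CPM in double mutants (ENSMUSG00000021379, chromosome 13, 48261228 to 48266026). PIK3CA 3 fell within the HER2 range. The log2 difference between HER2 and PIK3CA mutants was -2.31 (adjusted p 0.0350 in edgeR, SE 0.578). It was lost without PIK3CA 1, PIK3CA 2, PIK3CA 4, HER2 1, HER2 3 or HER2 4 (adjusted p 0.0664 to 0.105). PIK3CA 3, the lowest PIK3CA mutant for Id4, also had the lowest basal marker sum of its genotype (525 CPM, against 1132 to 1395 CPM). WT 3 and double 2 were also the lowest of their genotypes for both (basal sums of 515 and 566 CPM). HER2 1 went the other way: it had the lowest Id4 of all samples and the highest basal sum of the HER2 mutants (974 CPM, mostly Krt14, against 265 to 390 CPM). The part of basal cells in the Id4 result was not tested. Id4 overlaps antisense transcripts, whose reads cannot be told apart.

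Other genes of the pathway were read from lists of further ligands, latency proteins, extracellular and intracellular modulators, co-receptors and target genes. Of 77 listed names, 76 were found and 65 tested, and 19 changed in at least 1 contrast. Against WT, 3 of 65 fell in PIK3CA mutants, 2 rose and 8 fell in HER2 mutants, and 4 rose and 9 fell in double mutants, beside the 4.52%, 10.4% and 11.8% of all genes. Double against HER2, double against PIK3CA and HER2 against PIK3CA mutants gave 3 of 65 each. The interaction gave 1 of 65. The shares of all genes were 2.5%, 0.672%, 4.41% and 1.06% in that order. Of 8 other ligands tested, Gdf5 rose in double mutants, from 1.13 ± 0.402 CPM in WT (n = 3, SD) to 12.1 ± 10.6 CPM (n = 5, SD). Its log2 fold change was 3.42 (adjusted p 0.00956 in edgeR, SE 0.780), lost without WT 3 (0.0677). Gdf15, a stress-induced ligand, was above PIK3CA mutants in double mutants by 2.58 (adjusted p 0.0496 in edgeR, SE 0.560), a call lost in 8 of 9 fits that left out 1 library, all but double 1 (up to 0.189).

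Of 11 genes for latency and activation of TGF-beta, 1 fell in PIK3CA, 3 in HER2 and 2 in double mutants against WT, and none rose against WT. Of all genes, 3.03%, 5.63% and 6.72% fell in that order. Itgb8, the integrin subunit that frees active TGF-beta, averaged 127 ± 35.0 CPM in WT (n = 3, SD), 119 ± 17.8 CPM in PIK3CA mutants (n = 4, SD), 60.0 ± 14.5 CPM in HER2 mutants (n = 4, SD) and 62.8 ± 6.88 CPM in double mutants (n = 5, SD). Relative to WT it changed by -1.08 log2 units in HER2 (adjusted p 0.00504 in edgeR, SE 0.208) and -1.01 in double mutants (adjusted p 0.0034 in edgeR, SE 0.196), and -0.99 between HER2 and PIK3CA mutants (adjusted p 0.0113 in edgeR, SE 0.195). These 3 calls held without any 1 library. Between double and PIK3CA mutants it was -0.92 (adjusted p 0.0346 in edgeR, SE 0.183), lost without any 1 library (up to 0.163). Lrrc32, which anchors latent TGF-beta at the cell surface, averaged 149 ± 10.5 CPM in WT (n = 3, SD) and 48.8 ± 34.3 CPM in HER2 mutants (n = 4, SD). It fell by 1.61 there on the log2 scale (adjusted p 0.0119 in edgeR, SE 0.363), with or without any 1 library. Lrrc32 was also lower in HER2 than in PIK3CA mutants (-1.38, adjusted p 0.0343 in edgeR, SE 0.343) and higher in double than in HER2 mutants (1.33, adjusted p 0.0468 in edgeR, SE 0.330). Both of these calls were lost without any 1 of 7 libraries (up to 0.0979 and 0.101): HER2 2, HER2 3 or HER2 4 for both, any PIK3CA library for the first, and any double mutant but double 2 for the other. Nrros, which anchors latent TGF-beta in myeloid cells, fell in PIK3CA, HER2 and double mutants, with log2 fold changes of -5.27, -3.90 and -6.60 (edgeR adjusted p 0.00336, 0.0109 and 0.000373), with the HER2 call lost without WT 3 (0.0726). It fell beside the macrophage markers given above, and their part was not tested.

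Among 13 other extracellular modulators, 3 fell in double mutants against WT, beside 6.72% of all genes. Fstl1, a stromal glycoprotein, averaged 28.9 ± 17.9 CPM in WT (n = 3, SD) and 0.309 ± 0.191 CPM in double mutants (n = 5, SD), and fell by 6.53 on the log2 scale (adjusted p 0.0039 in edgeR, SE 1.29). Double mutants were also the genotype with the lowest stromal marker sums, whose part was not tested. Dand5 fell by 0.87 (adjusted p 0.0470 in edgeR, SE 0.271), a call lost without any 1 of 7 libraries, all but WT 2 (up to 0.186). Twsg1, a BMP-binding protein, averaged 110 ± 2.76 CPM in WT (n = 3, SD) and 81.6 ± 5.84 CPM in HER2 mutants (n = 4, SD). Its log2 fold change there was -0.43 (adjusted p 0.0309 in edgeR, SE 0.119), lost without any WT library, HER2 2 or HER2 3 (up to 0.119). Between mutants, double were above HER2 mutants for Twsg1 by 0.45 (adjusted p 0.0369 in edgeR) and below them for Fstl1 by a log2 difference of -4.71 (adjusted p 0.0489 in edgeR). These calls were lost in 5 and 7 of 9 fits that left out 1 library (up to 0.0760 and 0.109): without HER2 2, HER2 3, double 1, double 4 or double 5 for Twsg1, and without HER2 2, HER2 4 or any double mutant for Fstl1. Of 5 co-receptor genes tested, Rgma, a BMP co-receptor, fell in every mutant genotype. It averaged 252 ± 58.7 CPM in WT (n = 3, SD), 160 ± 22.1 CPM in PIK3CA (n = 4, SD), 112 ± 13.8 CPM in HER2 (n = 4, SD) and 100.1 ± 9.8 CPM in double mutants (n = 5, SD). The log2 fold change was -0.65, -1.17 and -1.33 in that order (adjusted p 0.0324, 0.000881 and 0.000201 in edgeR, SE 0.165, 0.165 and 0.155). The PIK3CA call was lost without WT 1, WT 3, PIK3CA 1, PIK3CA 2 or PIK3CA 3 (up to 0.216), and the other 2 held without any 1 library. Double mutants were also below PIK3CA mutants for Rgma by -0.68 (adjusted p 0.0492 in edgeR), lost without any 1 library of the pair (up to 0.197).

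Of 15 intracellular modulators, 1 rose and 2 fell in HER2 mutants, and 1 fell in double mutants, against WT. Of all genes, 4.75% rose and 5.63% fell in HER2 mutants, and 6.72% fell in double mutants. Ski, a repressor of SMAD-driven transcription, averaged 549 ± 78.0 CPM in WT (n = 3, SD), 285 ± 68.4 CPM in HER2 (n = 4, SD) and 304 ± 45.0 CPM in double mutants (n = 5, SD). It fell by 0.94 and 0.85 on the log2 scale (adjusted p 0.00504 and 0.00442 in edgeR, SE 0.182 and 0.172), with or without any 1 library. Tgif2, another SMAD corepressor, rose by 1.94 in HER2 mutants (adjusted p 0.0169 in edgeR, SE 0.469), lost without WT 1 or WT 3 (up to 0.101). Ldlrad4, an inhibitor of TGF-beta signalling, fell by 0.95 there (adjusted p 0.0311 in edgeR, SE 0.261), lost without any 1 WT library (up to 0.117).

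Of 13 other known target genes, 3 rose and 2 fell in double mutants against WT, beside 5.03% and 6.72% of all genes. Atoh8, a BMP target, fell in every mutant genotype. It averaged 1.63 ± 0.815 CPM in WT (n = 3, SD) and 0.0327 to 0.0465 CPM in the mutants, at about the level of 3 reads. Its log2 fold change was -5.53, -5.23 and -5.07 in PIK3CA, HER2 and double mutants (edgeR adjusted p 0.00104, 0.00101 and 0.000321), with or without any 1 library. Cdkn1a, which encodes p21, averaged 31.6 ± 17.6 CPM in WT (n = 3, SD), 150 ± 102 CPM in HER2 mutants (n = 4, SD) and 226 ± 93.2 CPM in double mutants (n = 5, SD). It rose by 2.24 in HER2 (adjusted p 0.0204 in edgeR, SE 0.562) and by 2.84 in double mutants (adjusted p 0.00418 in edgeR, SE 0.567), with the HER2 call lost without WT 1 or WT 3 (up to 0.106). Cdkn2b, the cyclin-dependent kinase inhibitor known as a TGF-beta target, rose from 12.3 ± 3.63 CPM in WT (n = 3, SD) to 28.4 ± 3.36 CPM in double mutants (n = 5, SD). Its log2 fold change was 1.20 (adjusted p 0.0115 in edgeR, SE 0.283), lost without WT 1 or WT 3 (up to 0.0871). Hey1, a transcription factor induced by Notch and BMP signals, averaged 465 ± 66.8 CPM in PIK3CA (n = 4, SD) and 144 ± 71.6 CPM in HER2 mutants (n = 4, SD). It was lower in HER2 mutants by a log2 difference of -1.70 (adjusted p 0.0123 in edgeR, SE 0.343), with or without any 1 library.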

How the data were processed

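RNA was sequenced in 16 organoid samples, with libraries made by a SMARTer mRNA-seq kit per the labels' protocols. The submitters' processing notes name bcl2fastq 2.20, STAR 2.0.4b, Subread featureCounts 1.4.5, DESeq2 1.33.5 and the build mm10, with no role or order, and strandedness and annotation release are not given in the sources used here. The authors deposited raw read counts per Ensembl gene, and a table of normalized values treated here as signal. Each deposited signal value equalled the count divided by a per-sample size factor, within a relative difference of 5.49e-10. Of 55774 entries, 287 repeats of an identifier were dropped, which left 55487, and 0 other columns of per-sample values were present.

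Counts were tested with edgeR 4.0.16 in R 4.3.3: filterByExpr (24252 genes kept), TMM scaling, and the two-sided quasi-likelihood test, with all 16 samples fitted together by genotype. P-values were adjusted by Benjamini-Hochberg over all tested genes, with a threshold of 0.05. CPM values use the TMM factors, the standard error (SE) is the absolute log2 fold change over the square root of F, and positions and exon lengths are from GENCODE M21 (GRCm38). Total counts were 45545182 to 64168308 per sample, and a detection floor of 3 counts covers counting error only. The procedure was tested on simulated data.

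The members, gene lists and tests were chosen with earlier results of these data known. Member values were printed for every gene with an adjusted p under 0.05 in any contrast and always for the Id genes, Smad6, Smad7, Nog and the TGF-beta ligands. Other pathway genes were named where called, at most 4 per list, and 1 called gene is not reported here. Bmp7, Bmpr1a, Fst and other members without a call were described after their values were seen. Alternatives were other scalings, DESeq2 1.42.0, limma 3.58.1 on log2(deposited signal + 1), no filter on low counts, a replicate block, a GC and length offset, only 2 genotypes in the fit, and samples left out. The GC and length offset together with the block, and the alternatives for the other pathway genes, were added after the data had been seen. Promoter sequences are from RefSeq.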

Additional observations from a re-analysis of the deposited data

Results flagged for a closer look

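Among 57 groups of CPM values examined for a single distant sample, 5 had one, where chance gives about 1 in 20. Acvr2b was 15.2 CPM in PIK3CA 4, with the other PIK3CA mutants at 12.3 to 12.7 CPM. Grem1 was 30.7 CPM in HER2 4, with the other HER2 mutants at 0.156 to 5.20 CPM. Smad6 was 34.2 CPM in double 3, with the other double mutants at 22.6 to 25.5 CPM. Tgfb2 was 105 CPM in double 2, with the others at 74.7 to 81.0 CPM. Tgfbr1 was 33.6 CPM in double 3, the lowest double mutant, with the others at 40.8 to 42.1 CPM.

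The interaction test passed the threshold for 2 genes. WT was the only group from normal tissue, so genotype and tissue source cannot be told apart in this estimate. Acvr2b had an interaction estimate of -1.28 on the log2 scale (edgeR adjusted p 0.0120). Atoh8 had an estimate of 5.69 (SE 1.11, edgeR adjusted p 0.0242), beside log2 fold changes from WT of -5.53 (PIK3CA), -5.23 (HER2) and -5.07 (double). All 3 mutant genotypes were near the level of 3 reads, so the size of this estimate rests on very few reads. A double mutant level as low as the sum of the single changes could not have been measured. The test therefore cannot show whether Atoh8 departs from that sum. The Atoh8 call was lost without WT 1, WT 3, any PIK3CA library or double 4 (up to 0.0772).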

How the results depend on the processing

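The replicate numbers were not taken to pair the samples, since only some same-numbered pairs correlated above 0.1: over genes, they correlated at 0.071 to 0.273 between HER2 and double mutants (mean 0.157, against -0.041 for other pairs), with 2 of 4 best with their own number, and by a mean of -0.052 to 0.043 in the other pairs of genotypes. With a replicate block, members called were 1 in double against HER2 mutants, 0 in double against PIK3CA mutants, 2 in HER2 against PIK3CA mutants and 0 in the interaction (4 and 7 members at an unadjusted p under 0.05 where edgeR called 0). Over all genes the block called 118, 19, 552 and 35 in that order, where the fit without it called 606, 163, 1069 and 257. The block ended 10 of the 27 calls of members, those of Bmp2 in double against HER2 and in PIK3CA mutants against WT, Tgfb2 in PIK3CA and Smad2 in double mutants against WT, Acvrl1 in HER2 and double mutants against WT, Id4 and Smad6 in HER2 against PIK3CA mutants, and Acvr2b in double against PIK3CA mutants and in the interaction. With the offset for GC and length added to the block, members called were the same 1, 0, 2 and 0, and 1 in PIK3CA mutants against WT. Calls over all genes were then 112, 13, 583, 42 and 821. Other pathway genes called with the block, with or without the offset, were 0 in double against HER2 mutants, 0 in double against PIK3CA mutants and 0 in the interaction, where 8 to 13 had an unadjusted p under 0.05.

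A fit of only the 2 genotypes compared called 10 members in PIK3CA mutants against WT, 0 in HER2 against WT (12 at an unadjusted p under 0.05), 0 in double against HER2 (8), 2 in double against PIK3CA and 1 in HER2 against PIK3CA mutants. Over all genes it called 4136, 541, 37, 364 and 534 in that order. Of the other pathway genes it called 18 in PIK3CA and 2 in HER2 mutants against WT and 0 in double against HER2 mutants (10). DESeq2 called 7 members in double against HER2, 2 in double against PIK3CA, 7 in HER2 against PIK3CA mutants and 4 in the interaction. Over all genes it called 1715, 666, 2219 and 966 in that order. Of the other genes it called 7 in PIK3CA and 20 in double mutants against WT, 10 in double against HER2, 6 in double against PIK3CA, 7 in HER2 against PIK3CA mutants and 3 in the interaction. Without a filter, edgeR called 6 members in double against HER2 and 0 in double against PIK3CA mutants (5 at an unadjusted p under 0.05), and 2 other genes in the interaction. All genes called there were 693, 125 and 288. The GC and length offset called 1 other gene in double against PIK3CA mutants, and 144 over all genes. Without double 2 and double 3, members called were 3 in double mutants against WT, 4 against HER2 mutants and 2 in the interaction, and other genes 5 and 5 in the last 2. Calls over all genes were 2159, 1125 and 998 in that order. The median member log2 fold change was -0.42 in HER2 mutants against WT with limma and -0.19 in double against PIK3CA mutants without double 2 and double 3.

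With 1 library left out, members called ranged from 0 to 2 in PIK3CA, 2 to 6 in HER2 and 1 to 8 in double mutants against WT, 1 to 5 in double against HER2, 0 to 1 in double against PIK3CA, 1 to 3 in HER2 against PIK3CA mutants and 0 to 2 in the interaction. Other genes called ranged in the same order from 2 to 4, 5 to 15, 7 to 15, 0 to 6, 0 to 1, 2 to 6 and 0 to 2. Calls over all genes ranged from 396 to 1043, 733 to 2693, 1173 to 2961, 256 to 975, 17 to 143, 427 to 1166 and 54 to 382. With all libraries they were 1096, 2518, 2850, 606, 163, 1069 and 257. The median member log2 fold change ranged from -0.13 to -0.06, from -0.30 to -0.0901 in HER2 mutants against WT, -0.18 to -0.03, -0.02 to 0.15, -0.10 to -0.03, -0.20 to -0.01 and 0.02 to 0.19. Of 523 recomputed single-gene values, 367 kept direction and side of the threshold, 152 lost a call and 3 reversed. Those were Id1 in double mutants against WT, at -0.97 without double 2 and double 3 and from -0.10 to 0.66 over the fits that left out 1 library, and Smad7 in HER2 against PIK3CA mutants, from -0.0313 to 0.37 over such fits. No setting moved the median of all genes by more than 0.1. Small groups limit the precision of every call, and members under 1 CPM rest on few reads.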

Other observations

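Luminal marker lists were read beside the pathway genes. Milk protein genes summed to 3291 to 5539 CPM in WT, 8718 to 14637 CPM in PIK3CA, 6241 to 51868 CPM in HER2 and 7118 to 22831 CPM in double mutants. Of 7 milk protein genes, 6 rose in HER2 and 3 in double mutants against WT, and 4 were higher in HER2 than in PIK3CA mutants. Luminal progenitor markers summed to 916 to 1113 CPM in WT, 1208 to 1467 CPM in PIK3CA, 619 to 1109 CPM in HER2 and 568 to 1168 CPM in double mutants. Hormone-sensing luminal markers lay between 142 and 336 CPM in all samples. Proliferation markers summed to 35.4 to 97.3 CPM in WT and 71.2 to 419 CPM in the mutants, with 1 of 5 higher in HER2 and 2 of 5 higher in double mutants against WT.

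The HER2 mutants that were high for Id1, Id3 and Smad7 lay at opposite ends for the milk protein genes. HER2 2 and HER2 3 had 6241 and 51868 CPM of milk protein genes, the lowest and the highest of the HER2 mutants, and 51.9 and 75.3 CPM of Id1.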
